A study of Mus musculus with 2 samples.

Results

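The 26 genes described here encode enzymes that build cholesterol from acetyl-CoA and the proteins that switch those enzymes on and off with the sterol content of the cell. They were taken by gene symbol from both deposited tables of transcript models, and the reads of all models of a gene were summed. All 26 had reads in both libraries, out of 16457 annotated genes with reads in either. The libraries are long-read RNA-seq of adrenal gland tissue from male B6CASTF1/J mice of 2 months, the F1 hybrid of C57BL/6 and CAST strains, and no treatment is named. They form 1 group of 2 libraries, numbered here by the biological replicate numbers 1 and 2. The tissue labels count 2 animals, numbers 3 and 4, but the text on the libraries gives number 3 each time and names 1 donor entry. The libraries are therefore not shown to come from separate animals. The p-values set the difference between these 2 libraries against counting error only, and measure no spread between animals or libraries. That difference may be technical. No comparison between conditions was possible, and every test below compares 1 library with the other.

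In the pathway, acetyl-CoA units are joined to mevalonate, mevalonate is turned into isoprenoid diphosphates, squalene is closed to lanosterol, and lanosterol is trimmed to cholesterol. When membranes of the endoplasmic reticulum are low in sterol, the escort protein SCAP carries the precursors of SREBP transcription factors to the Golgi, where proteases release the active factors. When sterol is plentiful, the INSIG proteins hold SCAP and the precursors back. The adrenal cortex uses cholesterol as the starting material of its steroid hormones, and in mice much of that cholesterol is known to come from circulating lipoproteins.

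A count of whole long reads was available for each transcript model, with 824225 gene-assigned reads in replicate 1 and 656826 in replicate 2. Levels are given as CPM, the reads of a gene scaled to a library of 1000000 gene-assigned reads. A count of 0 allows up to 3 reads, which is 3.64 CPM for the deeper and 4.57 CPM for the shallower library. These limits and all intervals below cover counting error only. Summed over 6 marker genes, adrenal cortex markers stood at 65038 and 68256 CPM in replicates 1 and 2, and the 5 chromaffin markers at 11251 and 12408 CPM. The 9 adipocyte markers stood at 19793 and 11460 CPM, and each of the 9 was higher in replicate 1 by the adjusted p of the library comparison below. Of the 6 cortex markers 4 were higher in replicate 2 and 2 in replicate 1 by that adjusted p, none of them with a 2-fold difference. The 2 red cell genes stood at 1572 and 673 CPM. Of 5 hepatocyte markers, Cyp7a1, Serpina1a and Ttr were at 0 in both libraries, and the sum was 0 and 3.05 CPM.

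Stretches upstream of 4 members are printed first. For Srebf1 and Dhcr7, the first exons described below lie downstream of them. Insig1 had the smallest p between the libraries, and Hmgcs1 held the only match to the sterol regulatory element string given below. The stretches come from RefSeq on GRCm38.p6, the build of the deposited models. Each runs 5′ to 3′ up to the RefSeq start or to the beginning of an annotated coding transcript, whichever comes first. Capitals mark CCAAT (the NF-Y box), GGGCGG (the GC box), TCACNCCAC (a sterol regulatory element) and CACGTG (the E-box), each searched on both strands. The Dhcr7 stretch is the outer part of its window and leaves out the part nearer the start, which holds CCAAT at 85 and 49 and GGGCGG at 20 bases before the start.
Srebf1 1a promoter, chr11:60220628-60220877 (-): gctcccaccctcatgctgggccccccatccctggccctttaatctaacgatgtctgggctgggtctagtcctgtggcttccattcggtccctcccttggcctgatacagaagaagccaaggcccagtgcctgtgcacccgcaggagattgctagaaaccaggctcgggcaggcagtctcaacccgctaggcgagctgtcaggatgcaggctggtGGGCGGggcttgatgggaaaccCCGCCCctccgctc
Srebf1 1c promoter, chr11:60210472-60210721 (-): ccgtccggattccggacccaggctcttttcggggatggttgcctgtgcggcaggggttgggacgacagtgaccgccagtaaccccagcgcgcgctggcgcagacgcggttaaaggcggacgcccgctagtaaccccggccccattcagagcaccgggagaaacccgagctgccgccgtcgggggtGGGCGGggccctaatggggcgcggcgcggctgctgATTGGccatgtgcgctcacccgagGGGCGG
Dhcr7 promoter, outer part, chr7:143829964-143830076 (+): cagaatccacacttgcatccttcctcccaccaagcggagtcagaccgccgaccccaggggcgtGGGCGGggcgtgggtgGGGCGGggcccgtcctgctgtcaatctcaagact
Insig1 promoter, chr5:28071162-28071362 (+): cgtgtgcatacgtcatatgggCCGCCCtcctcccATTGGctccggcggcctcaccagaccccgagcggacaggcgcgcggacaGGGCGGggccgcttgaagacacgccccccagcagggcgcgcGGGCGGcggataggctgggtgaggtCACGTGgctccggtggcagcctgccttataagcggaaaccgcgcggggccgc
Hmgcs1 promoter, chr13:119690101-119690350 (+): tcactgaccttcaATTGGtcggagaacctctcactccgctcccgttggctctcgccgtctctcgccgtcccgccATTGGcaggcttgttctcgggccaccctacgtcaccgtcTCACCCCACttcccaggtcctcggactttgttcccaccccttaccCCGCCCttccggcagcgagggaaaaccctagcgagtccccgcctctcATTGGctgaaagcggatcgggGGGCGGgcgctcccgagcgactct

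RefSeq promoter windows were found for 22 of the 26 members, and not for Fdps, Fdft1, Sqle and Stard4. The start nearest to the 5′ end of the member's most abundant spliced model was taken, and 20 of the 23 windows so chosen, with both Srebf1 starts counted, lay within 100 bases of that end. Over the 250 bases upstream of these 20 starts, CCAAT was present in 16 (80%), against 33.9% of all 32851 RefSeq windows of the same length. The windows without CCAAT were those of Acat2, Insig2, Scap and the 1a start of Srebf1. GGGCGG was present in 19 (95%), against 32.7% of all windows, with Ggps1 as the member without it. CACGTG was present in 4 (20%), those of Hsd17b7, Sc5d, Insig1 and Scap, against 6.02% of all windows. TCACNCCAC was present in 1 (5%), that of Hmgcs1 at 137 bases before the start, against 1.05% of all windows. Only this string was searched, so a sterol regulatory element with other letters would not be counted. The median GC content was 63.2% in the members' windows and 52.4% in all windows, so the letters of the GC box were also more frequent by composition. The set of all windows was not limited to genes with reads or to starts near a model, so the sets were chosen differently. Whether the higher shares belong to this pathway was not tested. A match describes the letters only.

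Together the 26 genes held 2250 reads (0.273% of gene-assigned reads) in replicate 1 and 2302 reads (0.351%) in replicate 2. Dhcr7, the last reductase on one route to cholesterol, was read most, at 585 and 709.5 CPM (647 ± 88.2, SD, n = 2). Insig1 followed at 277 and 461 CPM, Srebf1 at 268 and 329 CPM, and Msmo1 at 228 and 329 CPM. Dhcr7 was the only member whose lower library stood above both libraries of the member ranked next among the top 7. The 6 most abundant members held 62.9% of the members' reads in replicate 1 and 65.3% in replicate 2, whereas Tm7sf2, Hsd17b7 and Stard4 stayed below 20 CPM.

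**Figure D1:**
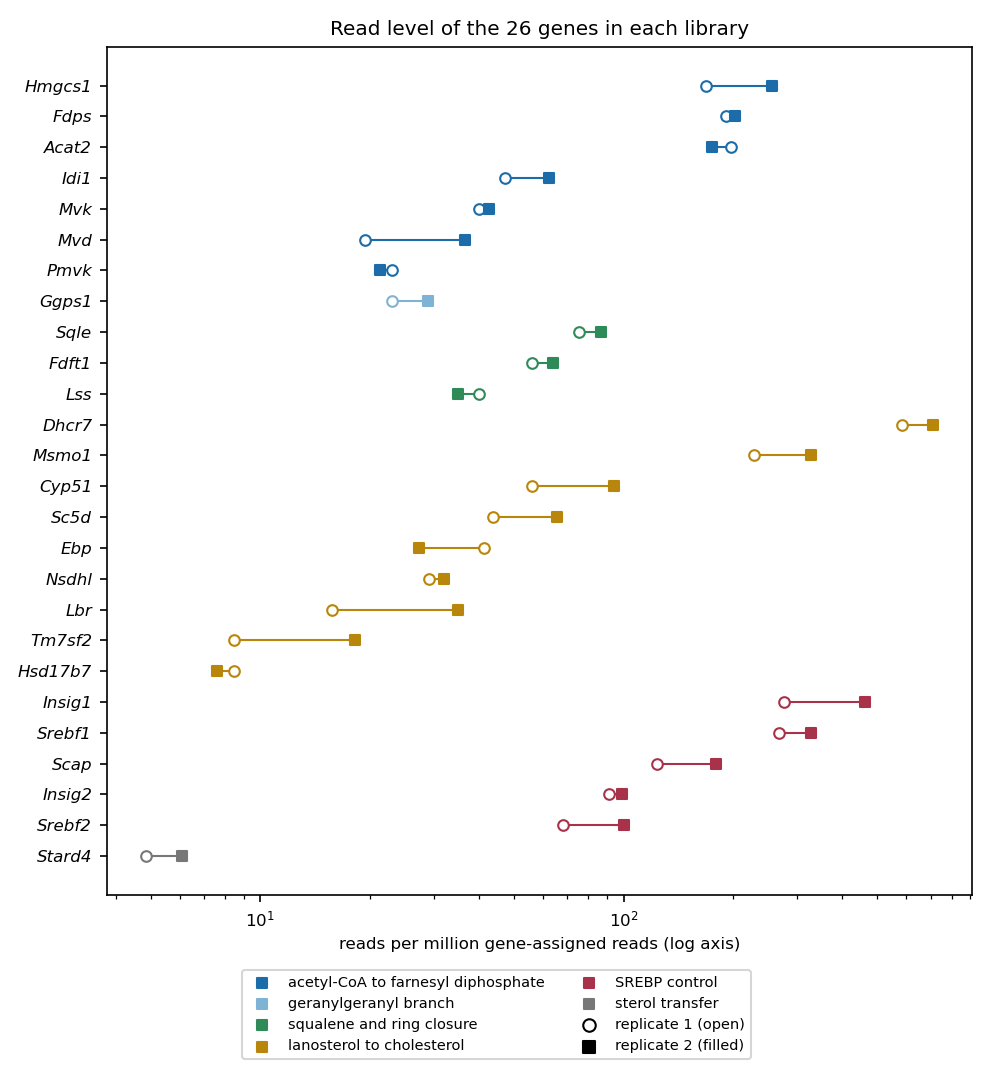
Read level of each of the 26 genes in replicate 1 (open circles) and replicate 2 (filled squares), in CPM on a log axis, with a line joining the libraries and colours for the steps of the pathway. Dhcr7 stands apart at 585 and 709.5 CPM, and Stard4 lies lowest at 4.85 and 6.09 CPM.

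In the plot of levels by step, the enzymes from acetyl-CoA to farnesyl diphosphate summed to 688 and 796 CPM in replicates 1 and 2. Hmgcs1, which condenses acetoacetyl-CoA with acetyl-CoA, stood at 169 and 256 CPM. Fdps, which makes farnesyl diphosphate, stood at 192 and 202.5 CPM, and Acat2, the cytosolic thiolase, at 198 and 175 CPM. The values of these 3 genes overlapped, whereas the enzymes between them were lower. Idi1, the isopentenyl diphosphate isomerase, stood at 47.3 and 62.4 CPM. The mevalonate kinase gene Mvk stood at 40.0 and 42.6 CPM, the phosphomevalonate kinase gene Pmvk at 23.1 and 21.3 CPM, and the decarboxylase gene Mvd at 19.4 and 36.5 CPM. Ggps1, which lengthens farnesyl to geranylgeranyl diphosphate for other products, stood at 23.1 and 28.9 CPM.

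The 3 genes that make squalene and close it to lanosterol summed to 171 and 186 CPM. Sqle, which adds the oxygen to squalene, stood at 75.2 and 86.8 CPM, the squalene synthase gene Fdft1 at 55.8 and 63.9 CPM, and the lanosterol synthase gene Lss at 40.0 and 35.0 CPM. The 9 genes from lanosterol to cholesterol summed to 1015 and 1318 CPM, most of it from Dhcr7 and Msmo1, the methyl sterol oxidase. The demethylase gene Cyp51 stood at 55.8 and 94.4 CPM and the desaturase gene Sc5d at 43.7 and 65.5 CPM. Ebp, the sterol isomerase, stood at 41.3 and 27.4 CPM, and Nsdhl, a dehydrogenase of the C4 demethylation complex, at 29.1 and 32.0 CPM. Its partner Hsd17b7, the ketoreductase, was low, with 7 and 5 reads. Of the enzymes able to reduce the C14 double bond, Lbr stood at 15.8 and 35.0 CPM and Tm7sf2 at 8.49 and 18.3 CPM.

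The SREBP control genes summed to 827 and 1169 CPM. Srebf1 stood at 299 ± 42.9 CPM (SD, n = 2) and Srebf2 at 84.2 ± 23.0 CPM, and the lower library of Srebf1 lay above the higher library of Srebf2 (100.5 CPM). Insig1 stood at 369 ± 131 CPM and Insig2 at 95.0 ± 5.63 CPM, again without overlap of the library values. Scap stood at 124 and 180 CPM. Stard4, a soluble sterol carrier that is itself an SREBP target, had 4 reads in each library, just above the limit of 3 reads. A long read counts once whatever its length, so CPM was not divided by length for these orders. Whether short and long transcripts were recovered equally was not tested, so the orders hold for reads only. Per kb of the read models, Dhcr7 remained the highest member at 279 CPM per kb, followed by Fdps (149), Msmo1 (137) and Insig1 (134). Srebf1 moved from rank 3 to rank 6 on that scale. Of the 25 pairs of neighbours in the CPM order, 20 had overlapping library values.

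Between the libraries, no member passed an adjusted p under 0.05 with at least a 2-fold difference. The test was an exact binomial test on reads scaled by trimmed mean of M-values (TMM), adjusted by Benjamini-Hochberg over all 8063 genes with at least 20 reads in sum. Over those genes, calls in favour of replicate 2 made up 1.05% and calls in favour of replicate 1 made up 2.36%. Of the 26 members 23 could be tested, and Tm7sf2, Hsd17b7 and Stard4 had too few reads. By the adjusted p alone 3 members were above in replicate 2 and 0 in replicate 1, against 3.55% and 7.53% of all tested genes, and 6 of the 23 members had an unadjusted p under 0.05, against 21.7% of all tested genes.

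Insig1 had 228 reads in replicate 1 and 303 in replicate 2, a log2 ratio of 0.64 with a 95% counting interval of 0.38 to 0.89. Its adjusted p in the exact binomial test was 1.31e-05. Hmgcs1 had 139 and 168 reads, a log2 ratio of 0.50 (interval 0.17 to 0.84, adjusted p = 0.0304). Msmo1 had 188 and 216 reads, a log2 ratio of 0.43 (interval 0.14 to 0.72, adjusted p = 0.0328). These 3 genes encode a protein that retains SCAP, an early synthase and a late oxidase. The difference of Insig1 stayed under an adjusted p of 0.05 in each alternative tried, whereas those of Hmgcs1 and Msmo1 did not, for example with DESeq2 size factors (log2 ratios 0.45 and 0.37). With library totals as the scale Dhcr7 also passed, at a log2 ratio of 0.28.

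**Figure D2:**
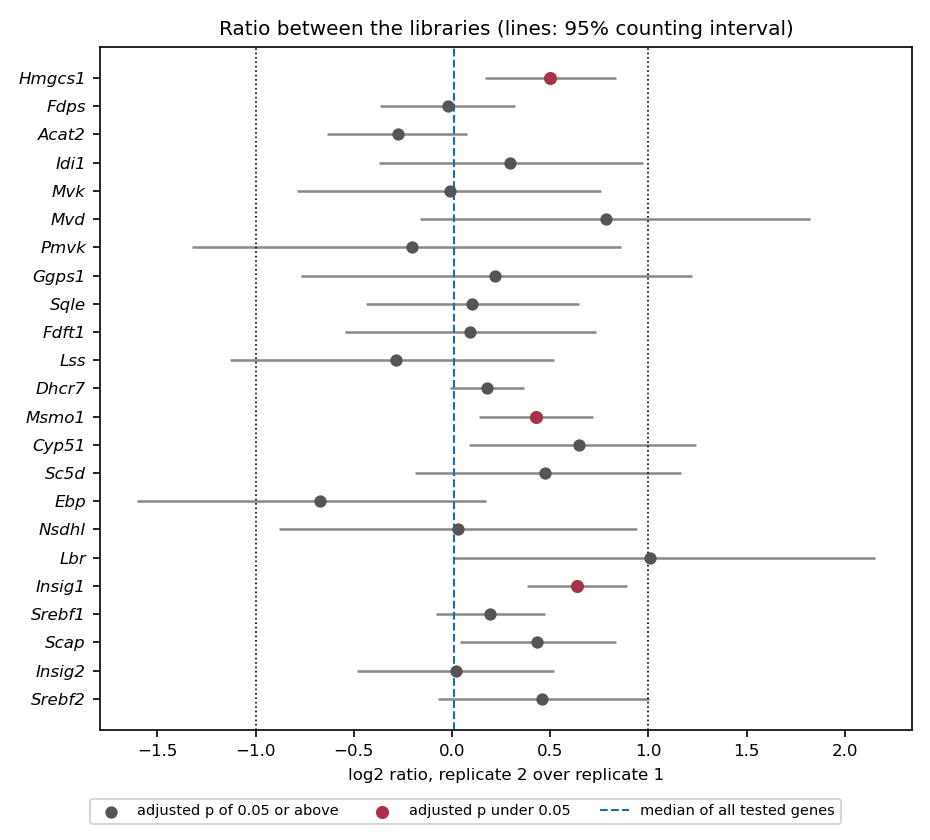
Log2 ratio of replicate 2 over replicate 1 for the 23 tested members, with the 95% counting interval as a line, the median of all tested genes as a dashed line and 2-fold differences as dotted lines. Insig1, Hmgcs1 and Msmo1 (red) passed an adjusted p under 0.05, and no interval of these 3 reached a 2-fold difference.

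In the plot of ratios, 17 of the 23 tested members lay above 0 and 6 below, with a median log2 ratio of 0.19 against 0.01 for all tested genes. All 5 SREBP control genes lay above 0, with a median of 0.43, as did 6 of the 7 tested genes from lanosterol to cholesterol. Of all 8063 tested genes 4093 lay above 0. Insig2 and Nsdhl lay above it only by 0.020 and 0.033, and were below it with DESeq2 size factors. Srebf1 was below it after removal of the length trend (-0.006). The 7 genes from acetyl-CoA to farnesyl diphosphate had a median of -0.01, with 3 above 0 and 4 below. Ebp had the lowest ratio at -0.67 (34 and 18 reads) and Lbr the highest at 1.01 (13 and 23 reads), and neither passed the adjusted p. With another scaling the members' median moved together with that of all genes, to 0.29 against 0.11 with library totals and to 0.14 against -0.04 with DESeq2 size factors. After removal of the trend with transcript length it was 0.12 against 0.01. The adipocyte markers fell by a median of 1.31 on the log2 scale in the same comparison, with 5 of the 9 called lower in replicate 2, and both red cell genes were called lower. Their part in the members' ratios was not tested. In tissue samples a difference in RNA per cell and a difference in the number of cells cannot be told apart.

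Other genes of the same control circuit gave 0 calls, against 1.05% of all tested genes called higher in replicate 2 and 2.36% in replicate 1. Of 15 genes for SREBP processing and sterol-regulated degradation, 13 were tested and 0 were called. By the adjusted p alone 1 was higher in replicate 2, against 3.55% of all tested genes. That gene was Rnf145, a ubiquitin ligase gene, with 93 and 129 reads and a log2 ratio of 0.69, for which the exact binomial test gave an adjusted p of 0.00551. Pgrmc1, a membrane haem protein, was the most abundant of them at 798 and 962 CPM. The site-1 protease gene Mbtps1 stood at 91.0 and 145 CPM, while the site-2 protease gene Mbtps2 had 4 and 3 reads.

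The 14 fatty acid synthesis genes known as SREBP-1 targets were all tested, with a median log2 ratio of 0.21 and 0 called. By the adjusted p alone 3 were higher in replicate 2 and 1 lower, against 3.55% and 7.53% of all tested genes. Those higher were Fads2 (3768 and 4500 CPM, log2 ratio 0.16), Me1 (1246 and 1658 CPM, 0.31) and Scd2 (403 and 603 CPM, 0.48). Thrsp, a lipogenic gene, was the lower one, at 1024 and 699 CPM (log2 ratio -0.65). Acly, ATP citrate lyase, stood at 2998 and 3378 CPM and did not pass. Of 9 oxysterol and LXR genes 3 had enough reads, 0 were called, and Nr1h3, an LXR receptor gene (94.6 and 51.8 CPM), was lower in replicate 2 by the adjusted p alone (log2 ratio -0.96). Nr1h2 was the most abundant of that list at 163 and 224 CPM, and Cyp27a1, which makes an oxysterol, stood at 13.4 and 15.2 CPM. Of 15 isoprenoid branch genes 13 were tested and 0 passed by either rule, with a median log2 ratio of 0.03. Fnta, a prenyltransferase subunit, led them at 182 and 157 CPM, followed by Coq2 at 138 and 166 CPM and Dolk at 109 and 82.2 CPM. Among promoter partners, the NF-Y subunit genes Nfyc (35 and 30 reads) and Nfyb (16 and 14 reads) did not pass and gave a median of 0.02. Sp1 (3 and 2 reads) and Nfya (1 and 0 reads) were too rare to test.

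Each read was assigned by the submitters' pipeline to 1 of 5 classes of model. Annotated models match a GENCODE transcript in all introns, and incomplete splice matches hold a contiguous part of such a chain. The remaining classes are new combinations of known splice sites, models with a new splice site, and reads with no compatible splice pattern. Of the members' reads 62.9% (Wilson 95% interval 60.9 to 64.9) in replicate 1 and 63.3% (61.3 to 65.2) in replicate 2 fell on annotated models, against 79.4% and 79.0% of the reads of all annotated genes. Without Dhcr7 the members' share was 80.1% and 79.3%. For shares, a gene needed 20 reads per library, which 18 members and 5334 genes in all reached. The median annotated share was 86.2% in these members and 84.6% in all. By Fisher's exact test with adjustment over those 5334 genes, 0 of the 18 members differed between the libraries in the annotated share at an adjusted p under 0.05 with at least 10 percentage points, against 0.319% of all genes. At an unadjusted p under 0.05 it was 1 of the 18, against 6.11% of all genes.

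**Figure D3:**
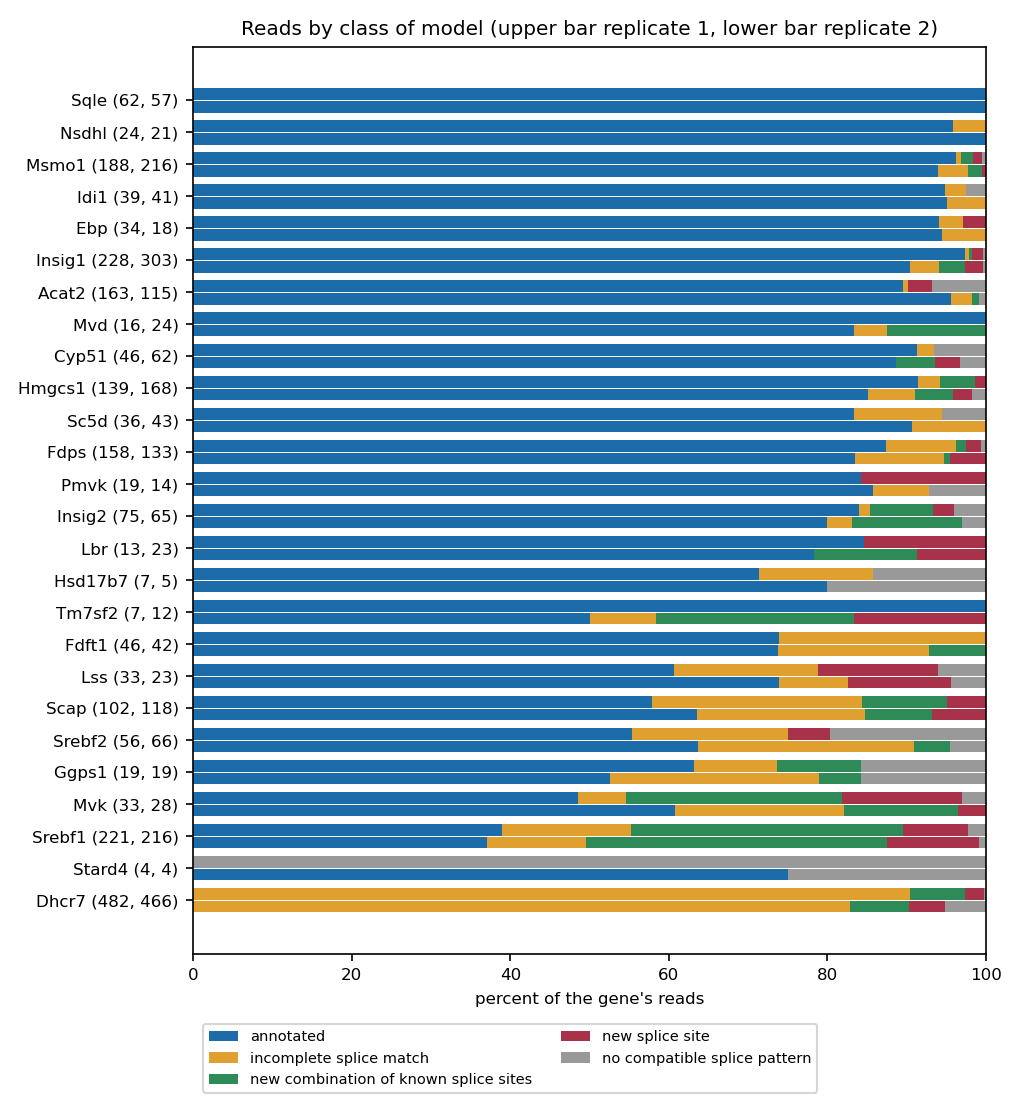
Percent of each gene's reads by class of transcript model, replicate 1 in the upper and replicate 2 in the lower bar, with the gene's reads in both libraries in brackets. Sqle at the top had 100% annotated reads in both libraries, and Dhcr7 at the bottom had 0% in both.

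The plot of classes shows how far the members differ. All 62 and 57 reads of Sqle fell on Sqle-201, an 11-exon transcript. Nsdhl (95.8% and 100%), Msmo1 (96.3% and 94.0%), Idi1 (94.9% and 95.1%) and Ebp (94.1% and 94.4%) were nearly as uniform. At the other end, 38.9% and 37.0% of Srebf1 reads and none of the Dhcr7 reads were annotated. Mvk (48.5% and 60.7%), Srebf2 (55.4% and 63.6%), Scap (57.8% and 63.6%) and Ggps1 (63.2% and 52.6%) lay between. A single annotated transcript held at least 90% of reads on average in 5 of the 18 members with enough reads (27.8%), against 24.1% of all 5334 genes. These were Sqle, Nsdhl, Msmo1, Insig1 and Idi1. The dominant share differed between the libraries in 0 of the 18 by the same rule, against 0.337% of all genes. At an unadjusted p under 0.05 it was 3 of the 18, against 6.51% of all genes.

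Dhcr7 had 482 and 466 reads and none on an annotated transcript. Among the 5334 genes tested for shares, 54 (1.01%) had no annotated read, and Dhcr7 had the most reads of these. One 8-exon model carried 325 and 313 of its reads, 67.4% (Wilson interval 63.1 to 71.5) and 67.2% (62.8 to 71.3). On chromosome 7 of mm10, plus strand, that model ran from 143830234 to 143848409 and shared all 7 introns with the 9-exon transcripts Dhcr7-201 and Dhcr7-202. It lacked their outermost exon and began within their second exon. The outermost exon lies at 143823167 to 143823540 in Dhcr7-201 and at 143829626 to 143829739 in Dhcr7-202. Reads that began at the Dhcr7-201 first exon and left it by its donor numbered 0 and 1, and those that did so at the Dhcr7-202 first exon 0 and 0, where a count of 0 allows up to 0.622% and 0.644% of the gene's reads. One further read, in replicate 1, began at 143829626 and ran past that donor to 143829902. The model still held the whole annotated coding sequence, which starts at 143836644 in its second exon.

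The deposited start of the 8-exon model, which is also the annotated start of Dhcr7-209, lay 20 bases downstream of the RefSeq start at 143830214. It is near the Dhcr7 stretch printed above. Dhcr7-207, Dhcr7-208, Dhcr7-209 and Dhcr7-211 also begin at the exon that ends at 143830265, but none of them holds all 7 introns of the model. Altogether 353 reads (73.2%) and 343 reads (73.6%) began at the exon that ends at 143830265. A further 36 and 33 reads began in the following exon at 143836651, which lies inside the coding sequence, and 21 and 20 began in the next at 143837762.

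**Figure D4:**
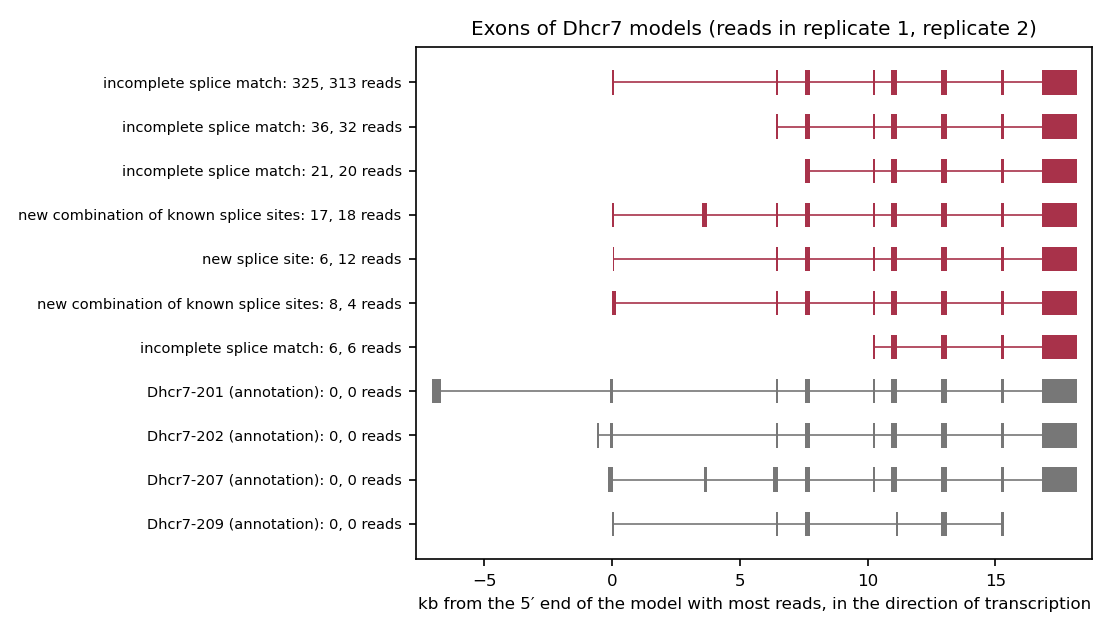
Exons (boxes) and introns (lines) of Dhcr7 models with at least 4 reads in each library (red) and of 4 annotated transcripts (grey), in kb from the 5′ end of the 8-exon model, with reads in replicate 1 and replicate 2. The 325 and 313 reads at the top begin at 0 kb, and the 4 annotated transcripts drawn had 0 reads.

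Among the Dhcr7 models drawn, a 9-exon form with 17 and 18 reads added an exon of 169 bases at 143833768 to 143833936 that is annotated in Dhcr7-208. That exon was present in 4.89% and 5.26% of the reads that spanned it. A model with 6 and 12 reads used a donor not in the annotation, with an intron from 143830313 to 143836637, and one with 8 and 4 reads used the donor of Dhcr7-203, with an intron from 143830400. Single-exon reads were assigned differently in the libraries: 35 and 0 were incomplete splice matches within the last exon, and 1 and 24 had no compatible splice pattern.

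Srebf1 encodes both SREBP-1a and SREBP-1c, which differ in their N-terminal activation domain and arise from separate promoters. On chromosome 11, minus strand, 96 and 98 reads began at the 1a first exon (60220453 to 60220604). At the 1c first exon (60210336 to 60210392 in its main model) 64 and 76 reads began. Of reads from either start, 40.0% (Wilson interval 32.7 to 47.7) in replicate 1 and 43.7% (36.5 to 51.1) in replicate 2 were 1c. The intervals overlapped. Reads that began at the outer exon of Srebf1-204, 60222523 to 60222581, numbered 0 and 1.

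The coding parts of both first exons are printed because they are the sequence by which the isoforms differ, with the start codon in capitals.
Srebf1 1a, chr11:60220453-60220543 (-): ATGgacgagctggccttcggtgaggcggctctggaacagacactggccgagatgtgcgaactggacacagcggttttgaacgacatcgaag
Srebf1 1c, chr11:60210336-60210354 (-): ATGgattgcacatttgaag
The 1a exon carries 91 coding bases and the 1c exon 19, and the difference of 72 bases leaves no remainder over 3. The full 1a chain is the annotated 19-exon Srebf1-201, with 80 and 78 reads. The full 1c chain, also of 19 exons, had 48 and 52 reads and was classed as a new combination, because the annotated transcripts that begin there, Srebf1-207 and Srebf1-208, are partial at the 3′ end. It differed from Srebf1-201 in 1 intron, 60207258 to 60210335. The mean share of Srebf1 reads was 36.2% ± 0.0622 for Srebf1-201 and 22.9% ± 1.67 for the 1c chain (SD, n = 2).

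**Figure D5:**
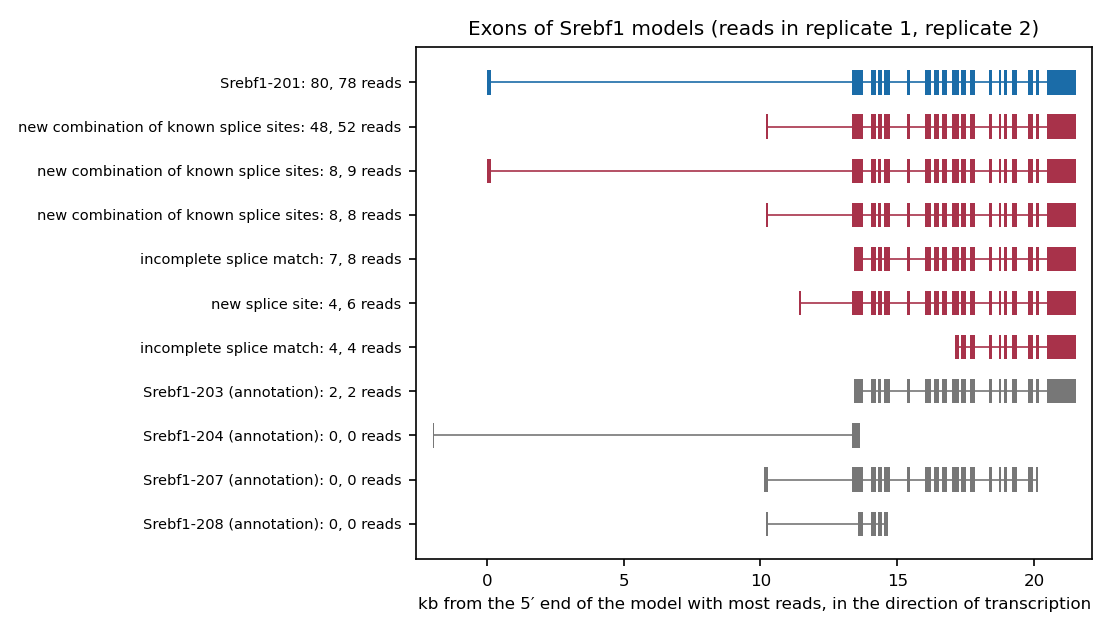
Exons of Srebf1 models with at least 4 reads in each library (Srebf1-201 blue, others red) and of 4 further annotated transcripts (grey), in kb from the 1a start in the direction of transcription, with reads in replicate 1 and replicate 2. The 1c chain with 48 and 52 reads begins about 10.2 kb downstream of the 1a start and shares the later exons.

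Both starts were joined to a further choice drawn in the plot of Srebf1 exons. At 1 splice donor, 15 bases were either kept (intron 60206078 to 60206172) or spliced out (intron 60206078 to 60206187, annotated in Srebf1-203). The end of the exon that keeps them reads as follows, with the 15 bases in capitals.
Srebf1 donor, chr11:60206173-60206199 (-): acagccgtgcagGCAGGTCCCCTGCAG
They were spliced out in 10 of 96 and 10 of 98 reads from the 1a start (10.4% and 10.2%). From the 1c start it was 10 of 64 and 9 of 76 reads (15.6% and 11.8%), with intervals that include the 1a values. The removal of 15 bases keeps the reading frame. A first exon that is not annotated, at 60209126 to 60209211 between the 1c exon and the shared exons, began 4 and 6 reads. Another 10 and 12 reads began inside the shared exon at 60206838 to 60207188, as Srebf1-203 does.

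The remaining control genes were simpler. Insig1-201, with 5 exons, held 222 of 228 reads (97.4%) in replicate 1 and 274 of 303 (90.4%) in replicate 2, a difference that did not pass (adjusted p = 0.148, Fisher's exact test). Its intron at chr5:28074649-28075061 was retained in 2 of 226 spliced reads that covered it (0.885%, interval 0.243 to 3.17) and in 18 of 296 reads (6.08%, 3.88 to 9.41), and these intervals do not overlap. The next intron was retained in 1 of 227 and 9 of 302 reads. Both introns were picked after their values were seen, so no test is given.

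Insig2 has 14 annotated transcripts with several first exons, but 70 of 75 reads (93.3%) and 62 of 65 (95.4%) began at that of Insig2-201, chr1:121327691-121328024. None began at the outer exon of Insig2-202 or at that of Insig2-203, where a count of 0 allows up to 4% and 4.62% of reads. Insig2-201 itself held 60 and 51 reads. A model with 5 and 6 reads joined its first exon to an acceptor inside the next exon, by an intron from 121319906 to 121327690 that is not annotated although both of its ends are.

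Srebf2-201, with 19 exons, held 27 and 30 reads. Srebf2-205, a 4-exon annotated transcript that ends within the gene, held 4 and 12, and unspliced or incompatible reads 11 and 3. Scap-201, with 23 exons, held 59 and 75 reads. Other first-exon donors of Scap began 7 and 4 reads (that of Scap-205) and 2 and 4 reads (that of Scap-207 and Scap-208), and 7 and 5 reads lacked the first 13 introns and began at 110380201.

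Among the enzymes, Hmgcs1 had the most even choice. Hmgcs1-201 held 81 and 96 reads and Hmgcs1-202 46 and 47, and they differ by an exon of 59 bases at chr13:119694989-119695047 upstream of the coding start. This exon was present in 49 of 132 spanning reads (37.1%, interval 29.4 to 45.6) in replicate 1 and in 49 of 151 (32.5%, 25.5 to 40.3) in replicate 2. Fdps-201 held 124 and 89 reads, and an added exon of 216 bases, as in Fdps-203, was present in 9.29% and 15.9% of spanning reads, with overlapping intervals. In Mvk an annotated exon of 38 bases at chr5:114444652-114444689 was present in 10 of 30 and 4 of 22 reads (33.3% and 18.2%, with wide, overlapping intervals), while Mvk-201, which lacks it, held 15 and 14. A new combination of splice sites that holds this exon had 8 and 2 reads.

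Fdft1-201 held 34 and 31 reads, and 11 and 7 reads began 1 exon later at 63165036, in the exon that also begins Fdft1-203. Acat2-201 held 131 and 103 reads and Acat2-203 14 and 6. Msmo1-201 held 181 and 203 reads, Cyp51-201 42 and 54, Idi1-201 36 and 38, Sc5d-201 30 and 39, Ebp-201 32 and 17, Nsdhl-201 23 and 21, and Lss-201 20 and 17. In the rarer members Mvd-201 held 16 and 20 reads, Pmvk-201 16 and 12, Lbr-201 11 and 18, Ggps1-201 12 and 8, Tm7sf2-201 7 and 5, and Hsd17b7-201 4 and 4. Stard4-201 held 0 and 3 reads, and the other 4 and 1 reads of Stard4 had no compatible splice pattern. Reads of that class also numbered 3 and 3 in Ggps1 and 1 and 1 in Hsd17b7. A Tm7sf2 model with a new splice site held 0 and 2 reads.

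Incomplete splice matches, such as the 8-exon model of Dhcr7, are parts of annotated chains. Of models with a new combination of splice sites or a new splice site, matched by intron chain across the libraries, 14 had at least 2 reads in each library, in 6 members. Of these, 10 used only annotated introns and 4 had an intron that is not annotated, and together they held 130 and 134 reads. Among these 14 the 1c chain of Srebf1 had the most reads, followed by the 9-exon form of Dhcr7. By where the models began, 67.6% and 70.4% of the members' reads started at an exon that is a first exon in every annotated transcript holding it. A further 21.4% and 20.2% started at an exon that is the first in one transcript and internal in another, most of them from Dhcr7, and 5.38% and 5.56% at an internal exon. Exons outside the annotation began 1.47% and 1.65%, and single-exon reads made up 4.22% and 2.22%.

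Some members overlap other annotated genes, and reads there were left as assigned by the submitters. Ctsb, which overlaps Fdft1 by 774 bases on the opposite strand, had 2028 and 1522 reads, against 46 and 42 for Fdft1. Gm20388, which covers Mvd on the opposite strand, had 34 and 43 reads. Gm43738, a gene model on the same strand as Fdps that covers most of it, had 2 and 4 reads. Vps51, which overlaps Tm7sf2 by 532 bases on the same strand, had 73 and 75 reads, against 7 and 12 for Tm7sf2. Acat3, a close copy of Acat2 with which its reads could be confused, had 3 and 2 reads, and Idi2, a copy of Idi1, had 0 in both libraries.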

How the data were processed

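Long-read RNA-seq counts of 2 libraries from 1 group were analysed. The authors deposited, per the file headers, a table for each library with a count of reads for every transcript model, its TALON novelty class, exon number and length in bases (other values), and a GTF with the exon coordinates of the models. Per the labels, the assembly is mm10. No aligner or setting is named in the labels or headers read here. Spike-in reads (5731 and 5156) were left out. Counts of all models of a gene were summed, and CPM used all gene-assigned reads as the total. The annotation was GENCODE M21, whose coordinates match the deposited models, and promoter windows came from RefSeq on GRCm38.p6.

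Libraries were compared with exact binomial tests on TMM-scaled totals (edgeR 4.0.16, R 4.3.3), with a pseudocount of 1 CPM for log2 ratios, and shares with Fisher's exact test (scipy 1.17.1), with Benjamini-Hochberg adjustment over all genes tested. With 1 group of 2 libraries a quasi-likelihood fit had no residual degrees of freedom, so these tests treat reads as independent and compare the libraries only. Genes needed 20 reads in sum, or 20 in each library for shares. Alternatives used library totals, DESeq2 1.42.0 size factors, other read minima, classes of reads, a pseudocount of 0.5 CPM and removal of a length trend (statsmodels 0.14.6, lowess span 0.3). Models without a name were matched between libraries by intron chain. The ratio and share tests were tried on simulated counts with counting error only, with large changes set in genes with many reads. The steps for models, first exons, introns and promoters were not tried in that way.

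The members and gene lists were chosen with earlier results of these data known. All 26 members were named, with the dominant annotated transcript of each, models with at least 10% of a gene's reads, the 10 most abundant new spliced models with at least 2 reads in each library, and from each further list the 3 most abundant genes and any that passed. A promoter stretch, the retained introns and the exon choices were picked after their values were seen. One gene from the further lists is not reported here.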

Additional observations from a re-analysis of the deposited data

Results flagged for a closer look

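New loci on the strand opposite a member, which enter none of the counts above, had reads for 11 of the 26 members. In 2 members they passed 3 reads in a library, the limit that a count of 0 allows, and in 0 members in both libraries. Opposite Dhcr7 they held 14 reads in replicate 1 and 0 in replicate 2. Of those 14 reads, 13 lay at chr7:143848044-143848409, at the 3′ end of the gene, and 1 upstream of the 8-exon model. Opposite Srebf2 they held 3 reads in replicate 1 and 4 in replicate 2, at chr15:82149126-82154499. The counts of members with such loci were not set against all annotated genes, so they show nothing particular to these members.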

How the results depend on the processing

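No member was called at an adjusted p under 0.05 with at least 2-fold in any of the 7 alternatives run for that count. The count at an adjusted p alone was 3, and it was 1 with DESeq2 size factors, with annotated models only, with the length trend removed and with no minimum of reads. Some ratios of members changed sign. With the length trend removed the ratio became 0.12 for Mvk, 0.12 for Pmvk, 0.25 for Fdps, -0.019 for Fdft1, -0.025 for Sqle, -0.014 for Nsdhl, -0.076 for Insig2 and -0.006 for Srebf1. With annotated models only it was 0.32 for Mvk, -0.019 for Ggps1, 0.009 for Lss and -0.033 for Insig2, and without reads of no compatible splice pattern 0.019 for Mvk. The cause of these changes was not tested. Library totals and DESeq2 size factors shift all ratios together, with medians of all genes of 0.11 and -0.041 against 0.011. That shift by itself took ratios near 0 across it, to 0.088 for Mvk and 0.079 for Fdps with library totals and to -0.018 for Nsdhl and -0.032 for Insig2 with DESeq2. The share of members' reads on annotated models was 63.1%, and 64.5% without reads of no compatible splice pattern. Members with a dominant transcript at 90% numbered 5, and 8 without incomplete and incompatible reads or at a threshold of 80%. The Insig2-201 start held 94.4% of Insig2 reads, 97.8% without incompatible reads and 99.3% without incomplete ones as well. Leaving out reads shrinks the total these shares refer to. Each library alone gave 0.273% and 0.351% for the members' share of all reads. No paired analysis was possible because both libraries belong to 1 group. Depth limits Tm7sf2, Hsd17b7 and Stard4, with 8 to 19 reads in sum, to a level only.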
